A study of Mus musculus with 6 samples.

Results

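The genes described here encode elastin, the fibrillins and the proteins that bind microfibrils, 10 genes of the 24421 rows of a bulk RNA sequencing matrix from sorted aortic cells. The rule that chose them lists gene names, for their known place in the elastic fiber, and uses no measured value. Earlier results of these data were, however, known when the genes were chosen. They are *Eln*, *Fbn1*, *Fbn2*, *Fbln5*, *Efemp1*, *Efemp2*, *Mfap2*, *Mfap4*, *Mfap5* and *Emilin1*. Each was found as 1 row of the matrix. Mice on the 129S6/SvEv strain carried a conditional CAG-Sun1/sfGFP tracer allele, which labels nuclei with GFP once Cre has acted, together with either Mef2cSHF, a Cre of the secondary heart field (SHF), or Wnt1-Cre2, a Cre of the cardiac neural crest (CNC). All 6 libraries are labelled WT (wild type). The sources describe no treatment of these mice, which were killed when 8 weeks old. Root and ascending aorta were digested with collagenase and elastase, and living GFP+ cells were collected by flow cytometry into 3 SHF libraries and 3 CNC libraries. Each Cre marks the descendants of an embryonic population, whatever cell type they have become. The study describes the libraries of each lineage as biological replicates. How many mice went into a library is not given in the sources used here.

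Elastic fibers let the ascending aorta stretch and recoil with each heartbeat. Their core is elastin, secreted as soluble tropoelastin, and their sheath is a scaffold of microfibrils built from fibrillins. Fibulins and microfibril-associated proteins guide tropoelastin onto the scaffold and bring in lysyl oxidases, which cross-link it into an insoluble polymer. Most of this polymer is laid down before adulthood, and it turns over very slowly. Human mutations in *ELN*, *FBN1* and *EFEMP2*, among others, cause disease of the aortic wall.

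Libraries are given in TPM, a level corrected for transcript length and taken as a share of its library. The TPM of each library sum to 1000000, so sequencing depth is unknown, and an exact 0 is given as listed at 0. Between 9255 and 11858 genes were above 0 in a library. *Xist* was above 0 in SHF replicates 2 and 3 only, and the Y-linked *Ddx3y* in the other 4 libraries, so SHF replicate 1 was the only SHF library alike to the CNC libraries in this respect. The summed level of 10 fibroblast markers ran from 10453.7 to 12238.3 TPM in SHF libraries and from 17434.5 to 26116.6 TPM in CNC libraries, and 10 of the 10 were above 0 in all 6 libraries. *Col1a1* and *Col1a2* made up from 51.3% to 54.2% of this sum in SHF libraries and from 58.3% to 67.8% in CNC libraries. The other 8 markers summed to between 4792.2 and 5966.1 TPM in SHF libraries and between 7268.8 and 8413.0 TPM in CNC libraries. The sum of 12 smooth muscle markers, which include *Acta2* and *Myh11*, ran from 1496.4 to 3145.4 TPM in SHF libraries and from 1378.7 to 2075.0 TPM in CNC libraries, and 9 of the 12 were above 0 in all 6. The sum of 10 endothelial markers was 89.5, 591 and 525 TPM in SHF replicates 1, 2 and 3 and at most 61.0 TPM in a CNC library, where *Cdh5*, *Emcn*, *Tie1*, *Cldn5* and *Vwf* were listed at 0 throughout. The other 5 were above 0 in at least 1 CNC library, *Pecam1* at 9.72, 37.86 and 19.81 TPM and *Tek* at 36.71, 23.10 and 1.11 TPM. The sum of 8 cardiomyocyte markers was 110, 126 and 116 TPM in SHF libraries and 37.9, 0.73 and 6.15 TPM in CNC libraries. That of 6 Schwann cell markers was 6.4, 1.5 and 15.3 TPM in SHF libraries and 21.4, 66.1 and 34.1 TPM in CNC libraries, so both sums separated the lineages, in opposite directions. In bulk libraries fewer cells of a type and less RNA per cell cannot be told apart, and the part of cell composition in the results below was not tested.

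Of the 10 genes, 9 were above 0 in all 6 libraries and passed the filter for testing (at least 1 TPM in at least 3 libraries), and *Fbn2* did not. Together the 10 genes held from 0.565% to 1.52% of a library's TPM. *Mfap4*, *Eln* and *Mfap5* made up between 75.1% and 84.5% of that sum. By mean TPM *Mfap4* ranked 30 among all rows, *Eln* 68, *Mfap5* 69, *Fbln5* 245 and *Fbn1* 1094. The abundant members were thus elastin, microfibril-associated proteins and fibulin-5, and the fibrillin transcript *Fbn1* stood below them. No gene of the matrix passed an adjusted p of 0.05 between lineages (limma with Benjamini-Hochberg adjustment, 0 of 10185 genes, 0.0%), while 597 (5.86%) had an unadjusted p under 0.05. The 9 tested members were likewise without a call in either direction.

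**Figure D1:**
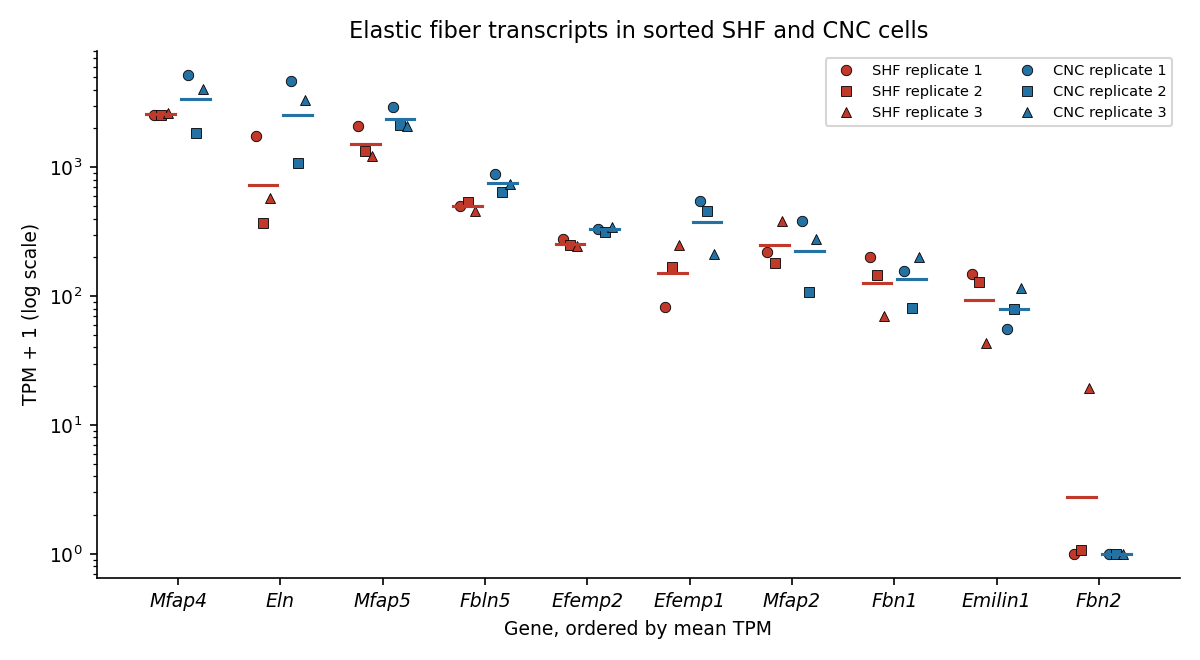
TPM + 1 on a log axis for the 10 genes in each library, SHF in red and CNC in blue, with a marker per replicate and a bar at the mean of the log values (n = 3). *Fbln5*, *Efemp2* and *Mfap5* have every CNC point above every SHF point, and *Fbn2* is clearly off the baseline in SHF replicate 3 alone.

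Elastin itself was the most variable of the abundant members. *Eln*, which lies on chromosome 5 (GRCm38) between 134702593 and 134747323, measured 1758.29, 369.71 and 581.37 TPM in SHF replicates 1, 2 and 3, against 4710.75, 1081.42 and 3296.64 TPM in the CNC replicates of those numbers. SHF replicates 2 and 3 lay below every CNC library, whereas SHF replicate 1 lay above CNC replicate 2, so the groups overlapped. The SHF mean was 903 ± 748 TPM (SD, n = 3), and the CNC mean 3029.6 ± 1829.3 TPM (SD, n = 3). On the scale of log2(TPM + 1) the difference, SHF minus CNC, was -1.82 with a standard error of 0.60 and a 95% interval from -3.14 to -0.51, or 3.54-fold higher in CNC libraries. It did not pass the threshold (limma adjusted p = 0.688, unadjusted p = 0.0109). An exact two-sided permutation test gave p = 0.2, where 3 libraries against 3 cannot give less than 0.1. Without SHF replicates 2 and 3, the libraries with *Xist* and the higher endothelial sums, the difference was -0.54 with an adjusted p of 0.997, in a fit that takes the lone SHF library to vary like the CNC libraries. In that fit the median over all tested genes was 0.26, against 0.02 in the full one.

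Within a lineage, the highest *Eln* value was 4.76 times the lowest among SHF libraries and 4.36 times among CNC libraries. The pooled SD within lineages was 1.13 on the log2(TPM + 1) scale, against a median of 0.47 over the 1522 tested genes averaging 100 TPM or more. Over all tested genes, whatever their level, the median was 1.19. Of the 148 genes averaging 1000 TPM or more, 3 had a larger SD than *Eln*. *Eln* was the 20th most abundant transcript in CNC replicate 1 and the 429th in SHF replicate 2. The 3 genes whose profiles over the 6 libraries lay nearest to that of *Eln*, by root mean square distance of centred log2(TPM + 1) values among 7356 genes, were *Iars2* at 0.29, *Pdlim1* at 0.34 and *Tbce* at 0.44.

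**Figure D2:**
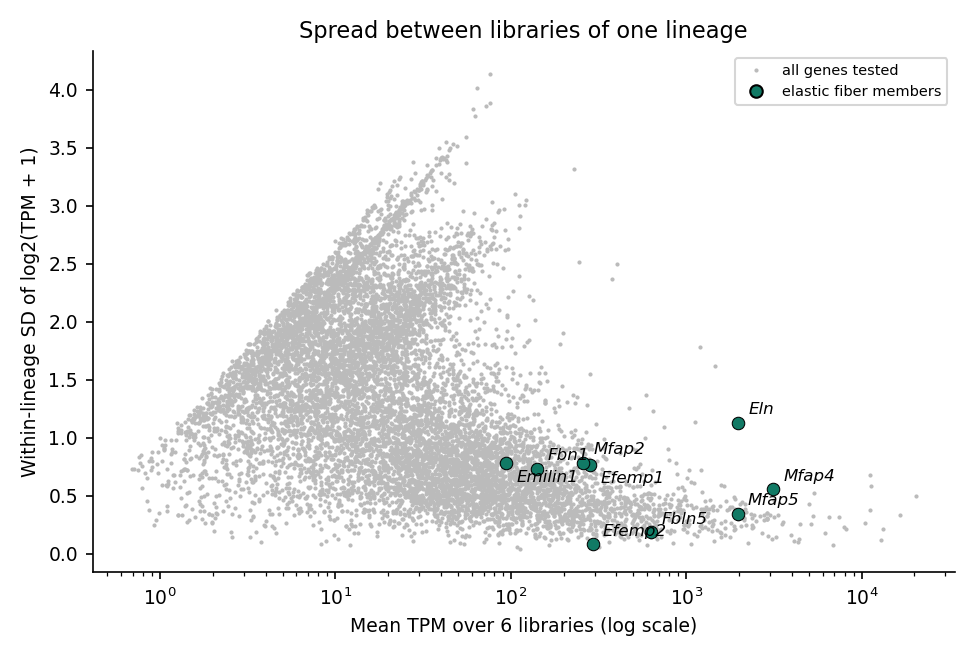
Mean TPM over 6 libraries on a log axis against the SD of log2(TPM + 1) pooled within lineages, for 10185 tested genes in grey and the 9 tested members in green. *Eln* lies at 1.13, high for its level, and *Efemp2* lies at 0.08, near the lower edge.

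The fibrillins are the large glycoproteins that polymerize into microfibrils. *Fbn1*, the main fibrillin of adult tissue, on chromosome 2 from 125300594 to 125507993, measured 199.23, 144.24 and 69.08 TPM across SHF libraries, against 156.01, 79.30 and 201.57 TPM across CNC libraries. The ranges covered one another almost completely. The log2 difference was -0.11 with a 95% interval from -1.24 to 1.02 (limma adjusted p = 0.981), an interval that leaves room for a difference of either sign. Nearest to *Fbn1* in profile were *Lamtor5* at 0.16, *Slc25a24* at 0.17 and *Rps6kb1* at 0.18. *Fbn2*, a fibrillin used mainly before birth, on chromosome 18 from 58008623 to 58210487, was listed at 0 in SHF replicate 1 and in the 3 CNC libraries. SHF replicates 2 and 3 read 0.07 and 18.48 TPM. Its level in SHF libraries therefore rests on 1 library, and no fold is given against a lineage listed at 0. In SHF replicate 3, the highest for *Fbn2*, *Fbn1* was at its lowest of the 6 libraries. *Fbn1* was next lowest in CNC replicate 2, at 79.30 TPM, where *Fbn2* was listed at 0.

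Short fibulins bind tropoelastin and carry it to the microfibril. Of the 3, *Fbln5* and *Efemp2* had every CNC library above every SHF library, and *Efemp1* did not. Over all tested genes 5.68% were separated in this direction, and 9.66% of those averaging 100 TPM or more. *Fbln5* (fibulin-5), which also binds integrins, lies on chromosome 12 from 101746565 to 101819055. It measured 499.87, 538.21 and 458.57 TPM across SHF libraries, against 882.01, 637.15 and 745.00 TPM across CNC libraries. The groups were separated by a gap from 538.21 to 637.15 TPM. The difference was -0.59 with a 95% interval from -1.16 to -0.01, or 1.5-fold higher in CNC libraries, and did not pass the threshold (limma adjusted p = 0.834, unadjusted p = 0.0469). *Efemp2* (fibulin-4), which is required for elastin cross-linking through lysyl oxidase, lies on chromosome 19 from 5473954 to 5482517. It measured 275.13, 248.82 and 242.49 TPM across SHF libraries, against 329.89, 314.05 and 343.97 TPM across CNC libraries. Of the tested members it had the smallest SD of log2(TPM + 1) pooled within lineages, 0.08, and its highest value was 1.13 times the lowest in SHF libraries and 1.10 times in CNC libraries. The difference was -0.37 with a 95% interval from -1.01 to 0.28, or 1.29-fold higher in CNC libraries (limma adjusted p = 0.890). limma moves each gene's spread toward that of genes of like level, and its interval for *Efemp2* therefore covers 0 although the groups were separated. *Efemp2* shares exon sequence with *Mus81* on the opposite strand, which was listed at 0 in 5 libraries and at 21.44 TPM in SHF replicate 1, and reads of the shared sequence cannot be told apart. For both genes an exact two-sided permutation test gave p = 0.1, the smallest possible with these libraries.

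The sequences before the starts of these 2 fibulin genes are shown because their levels separated the lineages. No annotated exon lies in either printed window. Both sequences are from RefSeq on GRCm38.p6, 250 bases before the first start listed for each gene, 5′ to 3′ on the strand of the gene, *Fbln5* from chr12:101819120-101819369 on the minus strand and *Efemp2* from chr19:5473696-5473945 on the plus strand. Capitals mark matches on either strand to CAGAC, a core that Smad proteins bind, and to GGGCGG, the GC box of Sp factors.
Fbln5: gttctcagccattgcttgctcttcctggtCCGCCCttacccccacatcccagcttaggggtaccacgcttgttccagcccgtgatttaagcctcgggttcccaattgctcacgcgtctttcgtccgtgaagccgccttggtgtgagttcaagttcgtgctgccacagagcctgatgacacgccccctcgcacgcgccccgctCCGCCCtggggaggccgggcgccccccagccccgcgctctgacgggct
Efemp2: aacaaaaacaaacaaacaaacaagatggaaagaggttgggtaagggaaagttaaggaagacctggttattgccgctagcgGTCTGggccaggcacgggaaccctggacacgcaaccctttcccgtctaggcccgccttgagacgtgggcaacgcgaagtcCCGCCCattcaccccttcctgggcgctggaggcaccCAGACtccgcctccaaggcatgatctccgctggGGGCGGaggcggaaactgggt
The window of *Fbln5* held GGGCGG at 2 places and no CAGAC, and that of *Efemp2* held GGGCGG at 2 places and CAGAC at 2 places, none of them overlapping. The table lists other starts for both genes, with other matches: 1 more for *Fbln5*, whose window held CAGAC at 2 places and no GGGCGG, and 2 more for *Efemp2*, whose windows held GGGCGG at 5 places each and no CAGAC. On either strand, neither printed window held the TATA box TATAAA, the TEAD factor site CATTCC or a CArG box, the site of serum response factor. Of 32851 such windows in the RefSeq table, 32.7% held GGGCGG, 42.2% CAGAC, 12.4% TATAAA, 12.6% CATTCC and 1.47% a CArG box, and a match describes letters, not a site. Of the 10 genes, 6 had an entry in this table, and *Eln*, *Fbn2*, *Mfap4* and *Mfap5* had none.

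*Efemp1* (fibulin-3), a fibulin of fascia and many connective tissues, on chromosome 11 from 28853204 to 28926743, measured 80.88, 166.44 and 246.53 TPM across SHF libraries, against 546.43, 455.32 and 211.59 TPM across CNC libraries. SHF replicate 3 was above CNC replicate 3, and the other CNC libraries were above all SHF libraries. The difference was -1.32 with a standard error of 0.49 and a 95% interval from -2.39 to -0.25, or 2.50-fold higher in CNC libraries, and did not pass the threshold (limma adjusted p = 0.748, unadjusted p = 0.0198). In SHF replicate 1 against the CNC libraries it was -2.20 with an adjusted p of 0.997, a value that rests on 1 SHF library, the lowest of the 6. Without that library the difference was -0.88.

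The microfibril-associated proteins decorate fibrillin microfibrils. *Mfap5* (MAGP-2), on chromosome 6 from 122505845 to 122529290, measured 2076.22, 1342.78 and 1226.58 TPM across SHF libraries, against 2917.06, 2129.36 and 2083.04 TPM across CNC libraries. Every CNC library was above every SHF library, but SHF replicate 1 and CNC replicate 3 were separated only by 2076.22 against 2083.04 TPM. The difference was -0.64 with a 95% interval from -1.23 to -0.05, or 1.56-fold higher in CNC libraries (limma adjusted p = 0.812, unadjusted p = 0.0357). In SHF replicate 1 against the CNC libraries it was -0.18. *Mfap4*, a fibrinogen-related glycoprotein that binds elastin and fibrillin-1, on chromosome 11 from 61485431 to 61488900, was the most abundant member. It measured 2541.45, 2528.67 and 2655.47 TPM across SHF libraries, against 5225.65, 1835.58 and 4022.50 TPM across CNC libraries. The 3 SHF values were nearly equal, and the CNC values lay on both sides of them. The difference was -0.39 with a 95% interval from -1.13 to 0.35 (limma adjusted p = 0.895), and it was -0.08 without CNC replicate 1 and -0.83 without CNC replicate 2. Exons of *Mfap4* overlap those of *Mapk7* on the opposite strand, which was at 25.57 TPM at most. *Mfap2* (MAGP-1), on chromosome 4 from 141010418 to 141015984, measured 217.75, 181.09 and 378.51 TPM across SHF libraries, against 384.41, 105.73 and 276.54 TPM across CNC libraries. Its difference was 0.14 with a 95% interval from -0.95 to 1.22 (limma adjusted p = 0.972), and the lineages overlapped fully.

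*Emilin1* encodes an emilin, a glycoprotein at the interface of elastin and microfibrils that restrains TGF-β processing, and lies on chromosome 5 from 30913402 to 30921277. It measured 147.93, 128.01 and 42.34 TPM across SHF libraries, against 54.75, 78.66 and 114.19 TPM across CNC libraries. SHF replicate 3 was the lowest library and SHF replicates 1 and 2 were the highest, so the lineages overlapped. The difference was 0.23 with a 95% interval from -1.02 to 1.49 (limma adjusted p = 0.959), and the sign depended on single libraries, with -0.10 without SHF replicate 1.

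**Figure D3:**
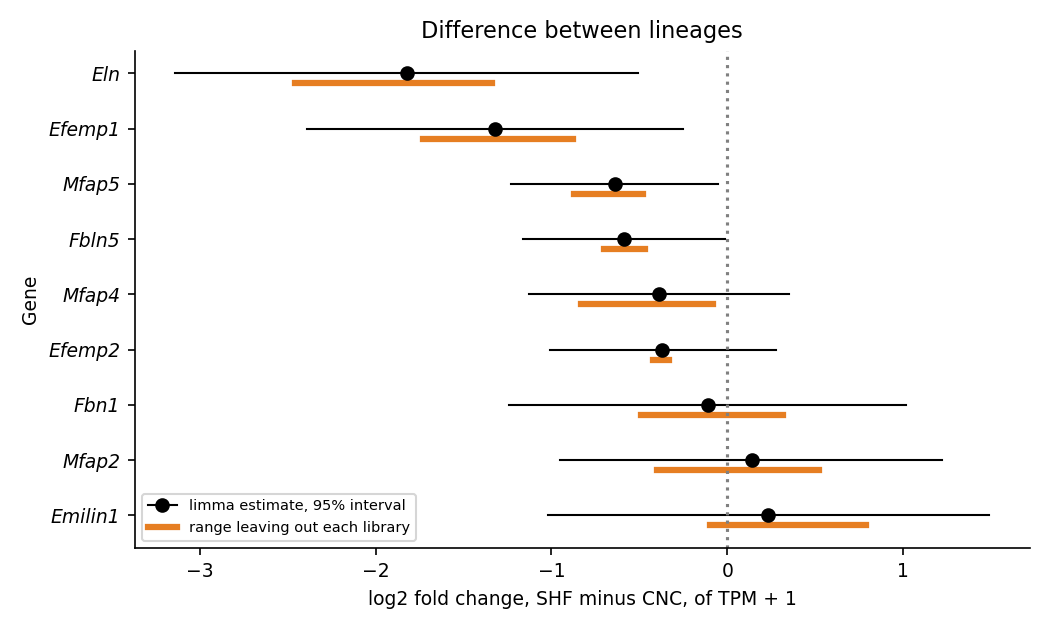
limma log2 fold change of TPM + 1, SHF minus CNC, for the 9 tested members, with 95% intervals in black (n = 3 against 3) and the range over fits that leave out each library in orange. The intervals of *Eln*, *Efemp1*, *Mfap5* and *Fbln5* lie below 0 before adjustment over all genes, and no adjusted p is under 0.688.

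Of the 9 tested members, 7 had a log2 difference below 0 (higher in CNC libraries) and 2 above 0, where 48.8% of all tested genes were below 0. The median was -0.39, against 0.02 over all tested genes, and was -0.70 without CNC replicate 2. Unadjusted p-values under 0.05 were found for 4 members, all higher in CNC libraries, where 3.17% of all tested genes had one in that direction and 2.69% in the other. For 3 of 9 members every CNC library was above every SHF library, and for 0 of 9 the reverse, where 5.68% and 6.11% of all tested genes were so separated. Among the 1522 genes averaging 100 TPM or more these shares were 9.66% and 6.04%. Fewer libraries separate more readily, and without CNC replicate 2 the count was 5, when *Eln* and *Mfap4* joined, where 10.0% of all tested genes and 15.0% of the abundant ones were separated in this direction. In SHF replicate 1 against the CNC libraries it was 4, when *Efemp1* joined, where these shares were 18.6% and 28.6%. In that last comparison the log2 difference was -0.58 for *Fbln5*, -0.41 for *Mfap4*, -0.26 for *Efemp2*, 0.55 for *Fbn1* and 0.90 for *Emilin1*. Exact two-sided permutation p-values were 0.1 for *Mfap5* and ran from 0.2 to 1.0 for the members with overlapping lineages. In the same libraries 5 of the 10 fibroblast markers, among them *Col1a1*, *Col1a2* and *Pi16*, were separated in the same direction, and the part of fibroblast number in the members' values was not tested.

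**Figure D4:**
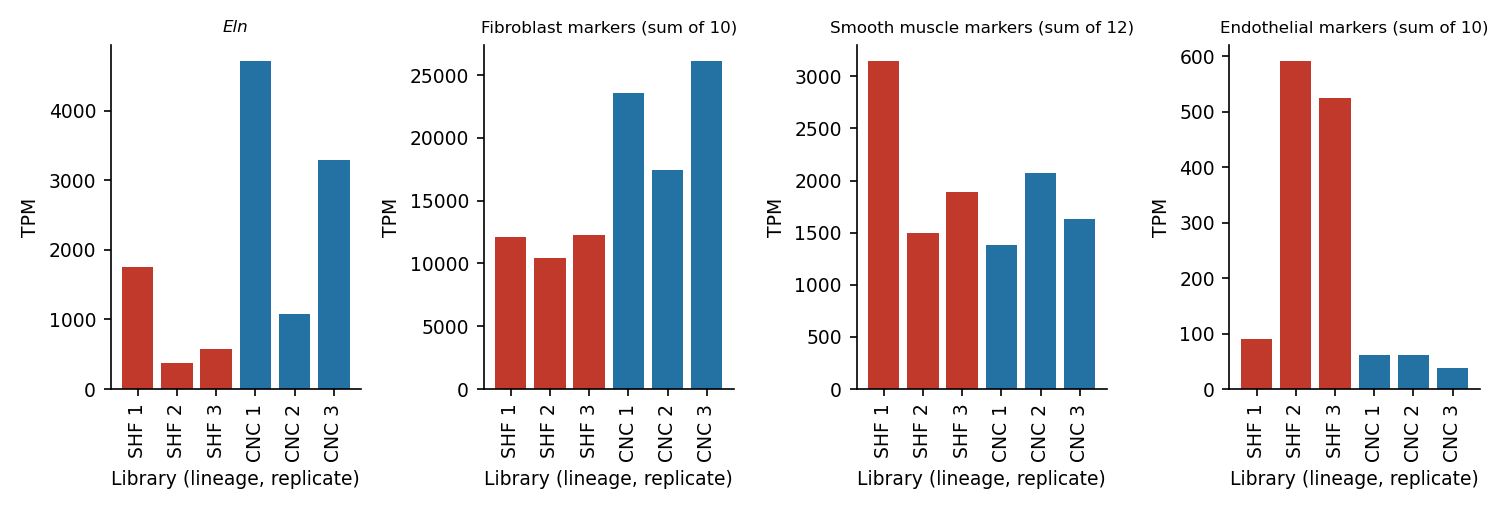
TPM in each of the 6 libraries, SHF in red and CNC in blue, of *Eln* and of the sums of 10 fibroblast, 12 smooth muscle and 10 endothelial markers, each on its own linear axis from 0. *Eln* is high in CNC replicates 1 and 3, where the fibroblast sum, of which *Col1a1* and *Col1a2* hold the larger part, is also highest. It is low in SHF replicates 2 and 3, where the endothelial sum is highest, while the smooth muscle sum is highest in SHF replicate 1. In SHF replicate 1 *Eln* is higher than in CNC replicate 2 and SHF replicate 3, whereas the fibroblast sum is lower than in both.

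In order of mean TPM the members ran *Mfap4*, *Eln*, *Mfap5*, *Fbln5*, *Efemp2*, *Efemp1*, *Mfap2*, *Fbn1*, *Emilin1* and *Fbn2*. *Mfap4* was above *Eln* in 6 of 6 libraries. *Eln* and *Mfap5* had means of 1966.4 and 1962.5 TPM, but *Mfap5* was above *Eln* in the 3 SHF libraries and below it in 2 of the 3 CNC libraries. *Efemp2*, *Efemp1* and *Mfap2* formed a group of like level, in which *Efemp2* was above *Efemp1* in 3 of 6 libraries and *Efemp1* above *Mfap2* in 2 of 6. The order held in 6 of 6 libraries for *Mfap5* above *Fbln5*, *Fbln5* above *Efemp2*, *Mfap2* above *Fbn1*, *Fbn1* above *Emilin1* and *Emilin1* above *Fbn2*.

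Ratios of TPM + 1 within a library depend little on its scaling, and 3 pairs were compared, the MAGP proteins, a pair of fibulins, and fibulin-5 with the elastin it binds. *Mfap5* to *Mfap2* was at 9.50, 7.38 and 3.23 in SHF libraries and at 7.57, 20.0 and 7.51 in CNC libraries, so MAGP-2 transcripts exceeded MAGP-1 transcripts in every library. *Efemp1* to *Efemp2* was at 0.297, 0.670 and 1.02 in SHF libraries and at 1.65, 1.45 and 0.616 in CNC libraries. *Fbln5* to *Eln* was at 0.285, 1.45 and 0.789 in SHF libraries and at 0.187, 0.590 and 0.226 in CNC libraries, with SHF replicate 2 the library in which fibulin-5 transcripts exceeded elastin transcripts. In log2 units the lineages differed, SHF minus CNC, by -0.77, -0.96 and 1.24 in this order, with exact two-sided permutation p of 0.4, 0.3 and 0.2, each 0.4 after Benjamini-Hochberg adjustment over the 3 pairs. In all 3 the lineages overlapped. Single libraries moved these differences by over 1.5 times, to -0.31 without CNC replicate 2 and -0.32 without SHF replicate 3 for *Mfap5* to *Mfap2*, to -0.46 without SHF replicate 1 for *Efemp1* to *Efemp2*, and to 0.70 without SHF replicate 2 and 1.87 without SHF replicate 1 for *Fbln5* to *Eln*.

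**Figure D5:**
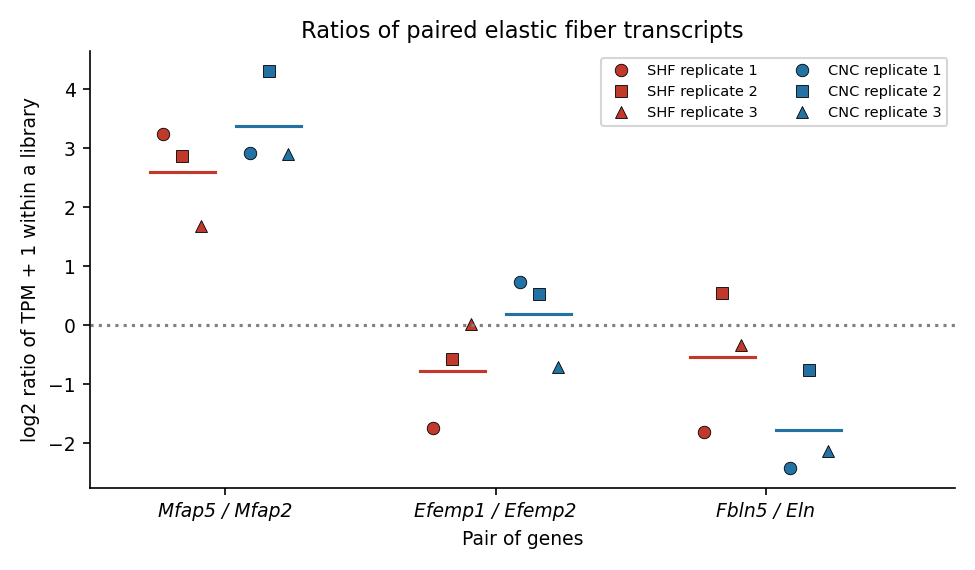
log2 ratio of TPM + 1 within each library for 3 pairs of genes, SHF in red and CNC in blue, a marker per replicate and a bar at the mean (n = 3). The *Mfap5* to *Mfap2* ratio is above 0 in all 6 libraries, and in each pair the red and blue points overlap.

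A wider list of 45 genes for the assembly, cross-linking, anchoring and breakdown of elastic fibers was read from the same fit. Of these, 38 were tested and 0 passed the threshold in either direction, with adjusted p-values from 0.688 to 0.998, and 8 had an unadjusted p under 0.05, where 5.86% of all tested genes had one. The median log2 difference was -0.22, against 0.02 over all tested genes. In 7 of the 38 every CNC library was above every SHF library, and in 3 the reverse, where 5.68% and 6.11% of all tested genes were. Of the cross-linking enzymes, *Loxl1*, which acts with fibulin-5, averaged 364 ± 115 TPM (SD, n = 3) in SHF and 461 ± 44.2 TPM (SD, n = 3) in CNC libraries. *Lox*, named after its values were seen, measured 299.02, 89.07 and 68.31 TPM across SHF libraries, against 378.92, 249.77 and 581.33 TPM across CNC libraries, a difference of -1.63 with a standard error of 0.54 (limma adjusted p = 0.688). As with *Eln*, SHF replicates 2 and 3 were the lowest libraries, and SHF replicate 1 lay within the CNC range.

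Among other matrix partners, *Fbln1* (fibulin-1) averaged 2137.9 ± 643 TPM (SD, n = 3) in SHF and 2062.3 ± 82.5 TPM (SD, n = 3) in CNC libraries. *Ltbp4*, a latent TGF-β binding protein that works with fibulin-5 in elastin assembly, was at 979 ± 113 and 856 ± 265 TPM (SD, n = 3). *Dcn*, a proteoglycan that binds microfibrils, was at 12280.7 ± 602 and 13441.5 ± 1405.0 TPM (SD, n = 3). The log2 differences of these 3 partners were 0.01, 0.23 and -0.13, with adjusted p-values of at least 0.911 (limma), and the sign for *Fbln1* and *Dcn* turned under other scalings. That of *Ltbp4* was 0.47 without CNC replicate 1, 0.11 without either of the other CNC libraries and 0.15 without SHF replicate 1. *Itgb1*, the integrin chain that many matrix receptors share, was at 391 ± 19.3 and 324 ± 63.5 TPM (SD, n = 3).

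The separated partners, apart from *Ctsl* and *Adamtsl2*, were named after their values were seen. Every CNC library was above every SHF library for *Fbln7*, *Ltbp1*, *Loxl3*, *Adamtsl4*, *Glb1*, *Mmp2* and *Ctsl*. *Ctsl*, a lysosomal protease that can cut elastin, averaged 1125.7 ± 106 TPM (SD, n = 3) in SHF and 1735.3 ± 89.6 TPM (SD, n = 3) in CNC libraries (limma adjusted p = 0.706). *Ltbp1*, a latent TGF-β binding protein on microfibrils, was at 76.3 ± 19.9 and 166 ± 62.4 TPM (SD, n = 3). The reverse held for *Adamtsl2*, *Vcan* and *Mmrn2*. *Mmrn2* measured 1.89, 35.12 and 41.02 TPM across SHF libraries, against 0.61, 0.0 and 0.0 TPM across CNC libraries. Like the endothelial marker sum it was highest in SHF replicates 2 and 3, and the part of endothelial cells was not tested. *Vcan*, the proteoglycan versican, which binds fibrillin-1, measured 234.21, 303.93 and 134.79 TPM across SHF libraries, against 88.63, 94.78 and 96.71 TPM across CNC libraries, a difference of 1.18 (limma adjusted p = 0.699). *Adamtsl2*, which binds fibrillin-1 and latent TGF-β binding protein, was at 128 ± 23.1 and 70.8 ± 23.4 TPM (SD, n = 3). Of the other elastin-cutting proteases listed, *Mmp2* ran from 958.70 to 1698.05 TPM and *Ctsk* from 85.99 to 442.13 TPM over the 6 libraries. *Mmp7*, *Mmp9*, *Mmp12* and *Elane* were listed at 0 in all 6 libraries, and *Ctss* was above 0 in CNC replicate 2 alone, at 17.84 TPM.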

How the data were processed

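RNA of sorted GFP+ cells was amplified by SmartSeq2, which has no molecular identifiers, and made into Nextera XT libraries. The authors aligned reads with Bowtie2 and estimated levels with RSEM 1.2.25 on the mm10 build, giving the deposited TPM of every library. Their gene annotation is not given in the sources used here. Columns were matched to libraries by library code, and 0 columns were left unmatched. The 10185 genes reaching 1 TPM in 3 or more of the 6 libraries were tested with limma 3.58.1 in R 4.3.3 (trended eBayes). Values were log2(TPM + 1) and differences SHF minus CNC, a scale that understates changes of low genes. Adjustment was by Benjamini-Hochberg over all genes tested, with a threshold of 0.05. Single values were tested by exact two-sided permutation (scipy 1.17.1). Positions are from GENCODE M21 (GRCm38), matched by symbol. The protocol does not mark strand, so reads of *Eln*, *Fbn1*, *Fbn2*, *Efemp2* and *Mfap4* and of genes overlapping their exons on the opposite strand cannot be told apart.

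The members and lists were chosen with earlier results of these data known. Genes named were the 10 members, the most abundant partner of each of 7 role groups, markers of the sorted cells (*Acta2*, *Myh11*, *Dcn*, *Lum*) and the 3 genes nearest in profile to *Eln* and to *Fbn1*. Others were named after their values were seen. The ratio of *Fbn2* to *Fbn1* is not given, since *Fbn2* was listed at 0 in 4 libraries. Leukocyte markers summed to at most 84.7 TPM in a library. *Lum* ran from 1865.82 to 3615.68, *Acta2* from 363.06 to 956.16 and *Myh11* from 17.43 to 125 TPM. Other pseudocounts, filters, scalings and weights, a replicate block and each library left out were tried.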

Additional observations from a re-analysis of the deposited data

How the results depend on the processing

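Under the alternatives tried, no member and no partner gene passed the threshold, and *Eln*, *Fbln5*, *Efemp1*, *Efemp2*, *Mfap4* and *Mfap5* stayed higher in CNC libraries in each of them. Of 296 recomputed differences, 281 kept their direction and 15 were reversed. With a pseudocount of 5 the number of genes past the threshold became 1, and this was *Gm13305*, named after its values were seen. SHF replicate 1 against the CNC libraries, in which the lone library is assumed to vary like the others, reversed *Fbn1* (0.55), *Mfap2* (-0.04), *Fbln1* (-0.02) and *Loxl1* (0.05), and the cause was not tested. *Fbln1* was also reversed by median-of-ratios rescaling (-0.07) and quantile normalization (-0.02), and *Dcn* by quantile normalization (0.04). Rescaling moved the median over all genes from 0.02 to -0.04. Across fits that left out each library, the log2 difference ran from -2.46 to -1.34 for *Eln*, from -0.83 to -0.08 for *Mfap4*, from -0.49 to 0.32 for *Fbn1*, from -0.40 to 0.52 for *Mfap2*, from -0.10 to 0.79 for *Emilin1* and from -0.21 to 0.22 for *Fbln1*, with reversals for the last 4. The number of members with separated lineages ran from 3 to 5 (5 without CNC replicate 2), while from 9.53% to 12.1% of all tested genes were separated in this direction in these smaller comparisons, against 5.68% in the full one. These counts and the count in SHF replicate 1 were added after seeing the data.

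Replicate numbers are shared by the lineages. The deviations of same-numbered libraries from their lineage means correlated at -0.0113, -0.00438 and -0.0106, which gives no sign that the numbers mark pairs. Other groupings of the libraries, as by library code, were not tested. Under a replicate block, 0 genes passed the threshold, 549 had an unadjusted limma p under 0.05, and the difference of *Eln* was -1.82. Unknown depth limits what values of 0, as for *Fbn2*, can say.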
